A study of Mus musculus with 18 samples.

Results

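The accessible chromatin around 7 myeloid transcription factor genes was followed through 6 peak lists of mouse blood stem and progenitor cells. The genes were Cebpa, Cebpb, Cebpd, Cebpe and Cebpg, which encode C/EBP factors, and Gfi1 and Gfi1b, which encode a pair of related repressors. A peak was taken as a member when its summit lay in the mm10 gene body of such a gene or within 100 kb of it. Over the 6 lists this gave 132 distinct regions of 94178 in all, 16 of them in the windows of both Cebpa and Cebpg, which are neighbours on chromosome 7. Of the 132 regions 53, or 40.2% (95% Wilson interval 32.2 to 48.7), were in all 6 lists, against 32.2% of all regions. Within 50 kb of a member the share was 34.6% of 78 regions. The nearest protein-coding gene was a member for 48 of the 132, so most of the regions lie closer to another gene, and which gene any of them acts on was not measured.

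The study applied ATAC-seq, in which Tn5 transposase cuts and tags open DNA, to 18 samples in 6 groups. Cells labelled HSC (haematopoietic stem cells) and HPC (haematopoietic progenitor cells) came from mice 8 weeks old that were wild type, with 2 HSC and 4 HPC samples, or Kmt2c f/f; Vav-Cre, labelled Kmt2c -/-, with 2 HSC and 2 HPC samples. The other groups were wild-type HSC from mice 16 weeks old, in 4 samples each, given either 5-fluorouracil at 150 mg/kg or the vehicle PBS, in both cases 3 times at intervals of 3 weeks. 5-fluorouracil kills dividing cells. Kmt2c encodes a histone H3 lysine 4 methyltransferase of enhancers, and Vav-Cre acts throughout the blood system, so the deletion was not limited to stem cells. The labels do not say which markers defined HSC and HPC, nor whether wild-type mice carried the floxed allele or Cre. All samples of a group share 1 deposited peak list, so no replicate could be compared, no test across samples was possible and the intervals given cover counting error over regions only. The vehicle and 5-fluorouracil groups differ from the other HSC in age, handling and number of samples together, and these cannot be told apart.

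C/EBP factors are leucine zipper proteins that bind DNA as dimers and drive the granulocyte and monocyte fates. C/EBP alpha is needed for granulocyte and monocyte progenitors to form, C/EBP beta for the demand-driven output of granulocytes in infection, and C/EBP epsilon for the last steps of granulocyte maturation. Gfi1 and Gfi1b are zinc finger repressors that recruit the demethylase Kdm1a through their SNAG domain, Gfi1 mainly in stem cells, lymphocytes and granulocytes and Gfi1b mainly in stem cells, erythroid cells and megakaryocytes.

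The 250 bases before the start site of 4 members are printed because 2 of them, Cebpa and Gfi1b, were overlapped by a region in each list and the other 2 in some lists only. They are from RefSeq on GRCm38.p6, 5′ to 3′ along the gene, with CG dinucleotides in capitals. The table held 5 of the 7 members, all but Cebpd and Cebpe.
Cebpa, chr7:35119043-35119292, plus strand: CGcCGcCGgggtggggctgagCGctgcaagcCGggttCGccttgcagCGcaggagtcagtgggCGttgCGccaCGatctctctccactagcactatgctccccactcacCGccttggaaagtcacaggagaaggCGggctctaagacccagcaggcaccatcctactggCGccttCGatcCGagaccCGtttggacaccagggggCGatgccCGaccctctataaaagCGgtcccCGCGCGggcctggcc
Cebpb, chr2:167688665-167688914, plus strand: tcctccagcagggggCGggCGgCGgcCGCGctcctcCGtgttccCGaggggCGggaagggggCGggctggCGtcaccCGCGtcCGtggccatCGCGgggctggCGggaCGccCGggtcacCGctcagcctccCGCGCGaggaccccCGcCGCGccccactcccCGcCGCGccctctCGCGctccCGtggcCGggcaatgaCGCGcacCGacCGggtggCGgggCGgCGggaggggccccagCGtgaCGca
Gfi1, chr5:107725806-107726055, minus strand: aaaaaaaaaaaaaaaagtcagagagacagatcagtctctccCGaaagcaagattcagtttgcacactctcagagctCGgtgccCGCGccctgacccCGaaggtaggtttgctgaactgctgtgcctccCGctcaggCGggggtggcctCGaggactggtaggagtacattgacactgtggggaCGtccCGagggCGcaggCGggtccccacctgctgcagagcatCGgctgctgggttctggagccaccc
Gfi1b, chr2:28621983-28622232, minus strand: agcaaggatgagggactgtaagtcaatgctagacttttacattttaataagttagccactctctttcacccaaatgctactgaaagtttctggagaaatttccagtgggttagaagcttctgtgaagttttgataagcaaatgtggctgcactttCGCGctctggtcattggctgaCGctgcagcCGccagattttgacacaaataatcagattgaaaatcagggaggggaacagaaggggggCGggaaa
The Cebpa and Gfi1b promoters were overlapped by a region of all 6 lists, as was that of Cebpg. The Gfi1 promoter was overlapped in both HPC lists and in those of vehicle and 5-fluorouracil HSC, but in neither list of HSC from mice of 8 weeks. The table holds a second Gfi1 start at 107724343, and the 250 bases before it, not printed, were overlapped in vehicle and 5-fluorouracil HSC only. The Cebpb promoter was overlapped in knockout, vehicle and 5-fluorouracil HSC and in no other list. CG dinucleotides numbered 22 in Cebpa, 41 in Cebpb, 29 in Cebpg, 13 in Gfi1, 9 at its second start and 5 in Gfi1b, against a median of 6 over 32817 promoters. The number of CG thus did not order these promoters by the number of lists, since that of Gfi1b, with the fewest, was overlapped in all. The 6 promoters of these 5 genes were searched on both strands for TTGCNNAA as the C/EBP motif, GAGGAAGT as that of PU.1 and, for Gfi1, AAATC followed after 3 free bases by GC. AGATAA stood for the erythroid GATA factors. For Runx factors the letters were TGTGGT. No motif is contained in another. The single match was TTGCTGAA, a C/EBP form, starting 143 bases before the Gfi1 start at 107725805. Over all promoters of this length 9.57% held the C/EBP motif, 2.40% the Gfi1, 2.44% the PU.1, 9.99% the GATA and 14.0% the Runx motif. A match is a description of letters and not a binding site.

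Depth could not be read from the files, and the lists differed in length, from 40073 regions in wild-type HSC and 48620 in knockout HSC through 52840 in knockout HPC and 65832 in wild-type HPC to 71363 in 5-fluorouracil and 80100 in vehicle HSC. They held 68, 84, 86, 99, 107 and 117 member regions, which is the order of list length, and the part of list length and depth in any difference below was not tested. Absence from a list means that no peak was called there, not that the DNA was closed. Regions at the ends of marker genes were looked up as a check of the labels. Over all protein-coding genes 51.7% and 55.2% had such a region in wild-type and knockout HSC. The shares were 59.7% and 54.5% in wild-type and knockout HPC, and 65.3% and 63.3% after vehicle and 5-fluorouracil. All 8 stem cell markers had one in vehicle and 5-fluorouracil HSC and 6 or 7 of them in each of the other lists, HPC included, so these markers did not separate HSC from HPC. Of 7 progenitor markers 6 had one in each HPC list, all but the granule gene Mpo, against 4 in each HSC list of 8 weeks, where Cd48, Mpo and Il7r had none, and 7 and 6 after vehicle and 5-fluorouracil. Of 8 neutrophil markers 5 had one in wild-type HPC and 2 or 3 in each other list, with none at Camp, Ngp or Retnlg in any. Of 8 erythroid and megakaryocyte markers 6 or 7 had a region in each list, HSC included, with none at Gata1 in any. Of 8 macrophage markers 3 to 5 had one, with none at C1qa, C1qb or Vcam1 in any list. Of 6 B cell markers 1 to 4 had a region, and of 6 T and NK cell markers 1 to 4, with none at Ms4a1, Pax5, Cd3g or Cd8a in any list.

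**Figure D1:**
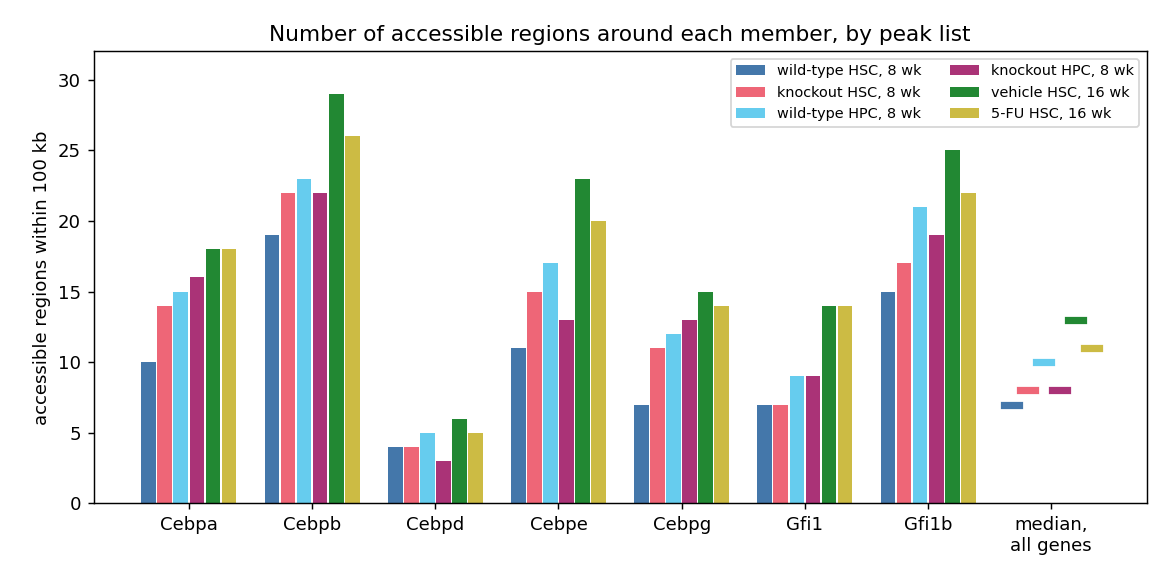
Number of accessible regions with a summit within 100 kb of each member (vertical axis), with 1 bar for each peak list, and at the right the median over all protein-coding genes for the same lists. Cebpb has the most in each list, from 19 to 29, and Cebpd the fewest, from 3 to 6.

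Cebpb (chromosome 2, 167688915 to 167690432) had the densest surroundings, with 32 regions over the 6 lists, more than 93.0% of protein-coding genes, whose median was 15. Gfi1b (chromosome 2, 28609450 to 28621982) had 27, Cebpe (chromosome 14, 54710363 to 54712174) 26, Cebpa (chromosome 7, 35119293 to 35121928) 21, Cebpg (chromosome 7, 35046422 to 35056566) 18 and Gfi1 (chromosome 5, 107716655 to 107725805) 17. Cebpd (chromosome 16, 15887286 to 15889545), whose product is induced in inflammation, had 7, more than 24.3% of genes. The share of these regions found in all 6 lists was 50% for Cebpb, 48.1% for Gfi1b and 47.6% for Cebpa, and 38.9% for Cebpg, 29.4% for Gfi1, 28.6% for Cebpd and 26.9% for Cebpe.

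**Figure D2:**
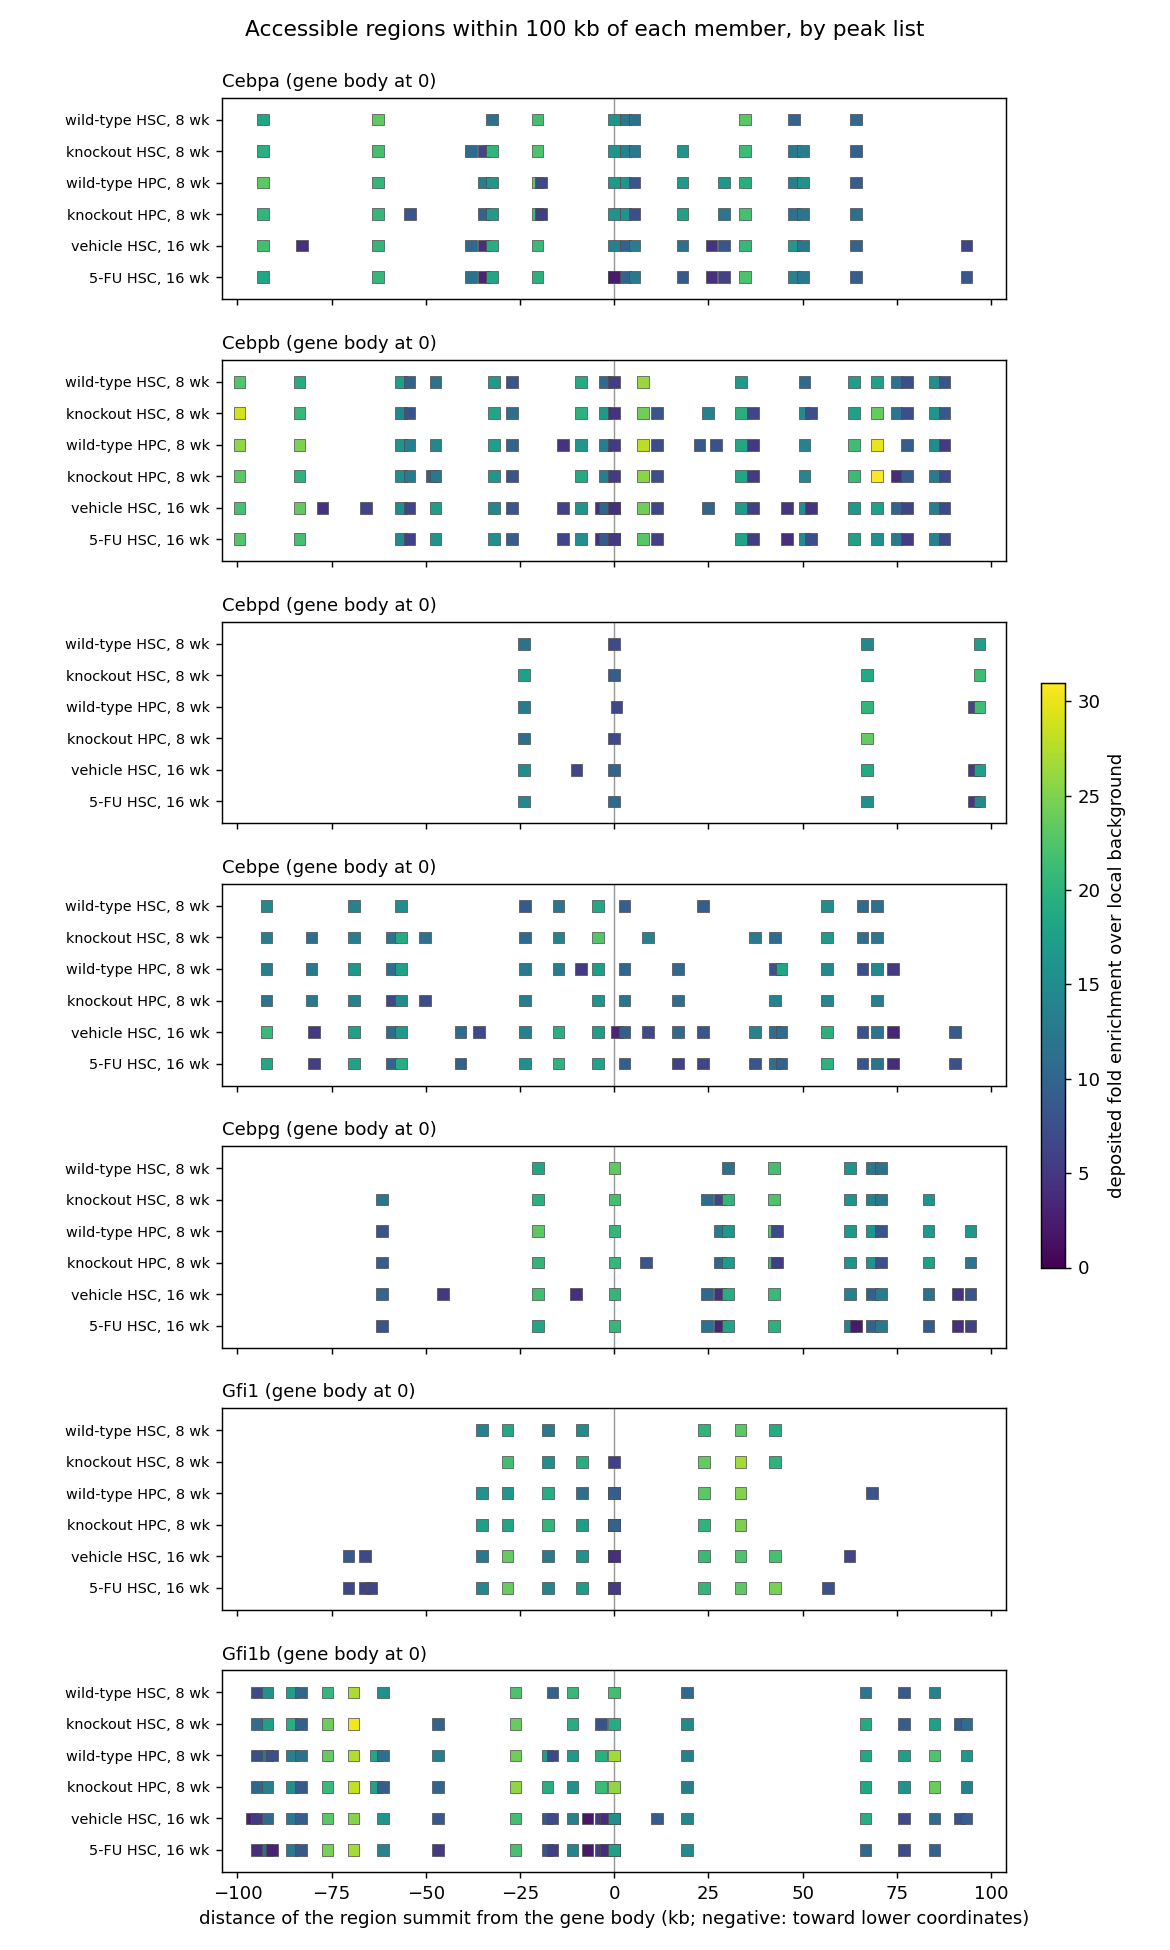
Accessible regions by distance of the summit from each member's gene body in kb (horizontal axis; negative values lie toward lower coordinates), with 1 row of squares for each peak list, coloured by the deposited fold enrichment. A region is drawn at the same distance in each list that holds it; the region 42.7 kb above Gfi1 is in the 4 HSC rows and in neither HPC row.

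Fold enrichment, the authors' value for each peak, is the signal at the summit over the local background of the same list, and is given here to describe a region within each list and not to compare lists. Strength percentiles place a region among the regions of its own list by −log10 p. For some regions the share of absent regions in the same decile of strength is given below. Such shares were lower in the deciles of stronger regions. A region named as the strongest of those absent thus has a lower share by that choice, which does not mark it as unusual. At the start of Cebpa a region from 35118026 to 35119714 was in all 6 lists, with fold enrichments of 16.0 and 16.1 in HSC and 16.6 and 16.1 in HPC, each as wild type and knockout, and 13.4 and 13.8 after vehicle and 5-fluorouracil. It ranked high in each list, at strength percentiles from 78.1 in wild-type HSC to 89.0 in vehicle HSC. A region 37.4 kb beyond the start, at 35156274 to 35157260, was in all 6 lists too, which is what constant means here. It had 22.9, 21.1, 19.6, 21.9, 20.8 and 22.2 in that order of lists, which is kept below where values stand without names, and percentiles between 83.9 and 90.8. A myeloid enhancer downstream of Cebpa has been described in mouse progenitors; this region was singled out for that distance, with its values known, and not by the rule for named regions. Another constant region lay 20.4 kb before the start, at 35098628 to 35099317, with fold enrichments of 21.7, 22.3, 23.2, 21.1, 20.9 and 19.8. These 3 regions were thus called in stem cells and in progenitors of each genotype and treatment.

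Between these constant regions lay others that were missing from one or both HSC lists of 8 weeks. The region 31.8 kb beyond the Cebpa start, at 35150735 to 35151348, had fold enrichments of 16.4 and 12 in wild-type and knockout HPC and 8.2 and 6.0 after vehicle and 5-fluorouracil, and the nearest region of the wild-type and knockout HSC lists lay 5002 and 4958 bp away. Another, 20.7 kb beyond the start at 35139760 to 35140524, was missing only from wild-type HSC and had 16.2 in knockout HSC, 16.7 and 17.8 in wild-type and knockout HPC, and 11.3 and 8.7 after vehicle and 5-fluorouracil. Both were singled out after their values were seen. A region 19.5 kb before the start, at 35099557 to 35099907, was in the HPC lists alone, with 6.9 in wild type at percentile 36.1 and 5.5 in knockout at percentile 8.40. A region of each HSC list, the constant one 20.4 kb before the start, lay only 240 to 379 bp away. That pattern, both HPC lists and no HSC list, was held by 2 of the 132 regions, 1.52%, against 4.02% of all regions.

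Cebpg encodes a C/EBP protein that lacks an activation domain and pairs with the other members. The region over its start, at 35055872 to 35057426, also lies in the predicted gene Gm45095 and was in all lists, with fold enrichments of 23.3 and 21.7 in HSC and 20.4 and 20.7 in HPC, each as wild type and knockout, and 20.5 and 20.6 after vehicle and 5-fluorouracil. Its percentiles ran from 84.4 to 92.9, so it was among the stronger regions of each list. A further constant region at 35025802 to 35026586, inside the dipeptidase gene Pepd, had 18.5, 19.7, 23.2, 20.3, 21.6 and 18.4 in the same order.

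Around Cebpb the gene itself had lower fold enrichments than the 3 regions of the window picked for the highest ones. Other distant regions were as low, such as that at 167736109 to 167736698, with 4.8 and 4.1 after vehicle and 5-fluorouracil. At the promoter and the front of the gene, from 167688569 to 167689398, a region was called in knockout HSC, vehicle HSC and 5-fluorouracil HSC, with fold enrichments of 4.5, 4.4 and 4.8 at percentiles 13.9, 50.4 and 49.9. Within the gene, from 167689525 to 167690214, a region was called in every list but that of knockout HSC, with 5.5 in wild-type HSC, 5.1 and 5.4 in wild-type and knockout HPC and 4.3 and 5.2 after vehicle and 5-fluorouracil. Its percentiles were 18.6, 33.3 and 25.2 in the first 3 of these and 48.8 and 54.4 in the last, so these regions stood near the middle of the 16-week lists and lower in the others. Both lie on this short gene, and each of the 6 lists held at least 1 of them. A region 9.1 kb beyond the start, at 167697778 to 167698420, had 26.2 and 24.2 in HSC and 27.8 and 25.5 in HPC, each as wild type and knockout, and 24.1 and 22.8 after vehicle and 5-fluorouracil. The highest fold enrichment of any member region was 30.8, in knockout HPC, 71.3 kb beyond the Cebpb start at 167759940 to 167760583. That region stood at percentile 97.8 of wild-type HPC and 98.7 of knockout HPC, and at 60.9, 83.7, 76.5 and 67.4 of wild-type, knockout, vehicle and 5-fluorouracil HSC. Ranks from lists of different length show no change at a region. At the far side, 99.4 kb before the start, the region at 167588691 to 167589807 had 22.6, 28.9, 25.7, 23.1, 21.8 and 22.6 in the order used above.

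At Cebpd a region over the lower end of the gene, at 15886612 to 15888252, was called in 5 lists, with fold enrichments of 7.0 and 9.2 in wild-type and knockout HSC, 7.0 in knockout HPC, and 10 and 10.5 after vehicle and 5-fluorouracil. Wild-type HPC had none there. Its nearest region lay 1731 bp further on, at 15889983 to 15890310 beyond the upper end of Cebpd, with 6.5, and was in no other list. Over the knockout HPC regions in the same decile of strength as the Cebpd one, 8.92% were absent from wild-type HPC. A region 23.9 kb below Cebpd beside Mzt2, at 15862263 to 15863730, was in all lists, with 11.7 and 17.8 in HSC, 12.6 and 11.3 in HPC, and 15.2 and 14.3 after vehicle and 5-fluorouracil. Inside the neighbouring gene Spidr a region at 15956286 to 15957062 was in all lists, with 14.5, 18.7, 20.3, 23.6, 18.8 and 15.3. Another there, at 15986011 to 15986771, was in every list but that of knockout HPC, with 17.2 and 21.2 in wild-type and knockout HSC, 21.5 in wild-type HPC, and 17.5 and 14.5 after vehicle and 5-fluorouracil. The nearest knockout HPC region was 29221 bp away.

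Cebpe had almost no region at its own ends. The single region with its summit within 1 kb of either end, at 54712735 to 54713341, was in vehicle HSC alone, with a fold enrichment of 3.2 at percentile 1.25. The next one out, 2670 bp above the gene at 54713748 to 54715307, was called in every list but that of knockout HSC, with fold enrichments between 9.1 and 11.9. The strongest region of the locus lay 4.4 kb below the gene, at 54705633 to 54706593, and was in all lists, with 18.6 and 22.6 in HSC and 17.1 and 16.0 in HPC, each as wild type and knockout, and 17.1 and 17.9 after vehicle and 5-fluorouracil. It was at percentiles 91.8 and 96.8 of the wild-type and knockout HSC lists, 85.3 and 79.2 of the wild-type and knockout HPC lists, and 97.9 and 98.4 of those of vehicle and 5-fluorouracil HSC. The strongest region beside this gene of late granulocytes was thus called in the stem cell lists too. Further off, a region at 54617486 to 54618547 beside the proteasome gene Psmb5 was in all lists, with 14.6, 12.9, 13.2, 11.8, 20.9 and 18.5. One inside Gm29776, at 54694997 to 54696168, was in all lists but that of knockout HPC, with 12.1 and 13.8 in wild-type and knockout HSC, 12.8 in wild-type HPC, and 19.4 and 20.1 after vehicle and 5-fluorouracil.

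Unlike those of Cebpa, Cebpg and Gfi1b, the Gfi1 start was not called in each list. The region there, from 107724622 to 107726490, had fold enrichments of 9.0 and 9.5 in wild-type and knockout HPC and 4.3 and 5.4 after vehicle and 5-fluorouracil. The wild-type and knockout HSC lists of 8 weeks had none, and their nearest regions lay 16242 and 2766 bp away. Each HPC list had 2 intervals there, which the wider intervals of the 16-week lists joined. The one over the start, at 107725734 to 107726450 in wild type and 107725725 to 107726433 in knockout, had fold enrichments of 6.6 and 7.1 at percentiles 43.2 and 28.1. Of HPC regions in its decile of strength 49.7% in wild type and 43.2% in knockout had no counterpart in HSC of the same genotype. The other, inside the gene at 107725305 to 107725633 and 107725300 to 107725627, held the values of 9.0 and 9.5, and in its decile these shares were 25.9% and 19.7%. Over all HPC regions the shares were 44.6% in wild type and 27.8% in knockout. The decile shares were thus above those of all regions for the interval over the start and below them for the stronger one.

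Upstream of Gfi1, inside the neighbouring gene Evi5, lay the member region of highest strength percentile in the 4 HSC lists, and the only one called in all 4 HSC lists and neither HPC list. Regulatory elements of Gfi1 in this stretch have been described in blood progenitors. The region 33.5 kb before the start, at 107758984 to 107759811, was in all lists, with 23.1 and 26.7 in HSC and 25.1 and 24.8 in HPC, each as wild type and knockout, and 22.4 and 23.1 after vehicle and 5-fluorouracil. Its percentile was 98.8, 99.4, 99.9 and 99.9 in wild-type, knockout, vehicle and 5-fluorouracil HSC, and 94.9 and 93.5 in wild-type and knockout HPC. The region 42.7 kb before the start, at 107768005 to 107768790, was called in the 4 HSC lists, with 19.1 in wild type, 20.1 in knockout, 21.8 in vehicle and 24.6 in 5-fluorouracil HSC, and in neither HPC list. The nearest HPC regions lay 8346 bp away in wild type and 8340 bp in knockout. Of wild-type HSC regions in its decile of strength 4.59% were absent from wild-type HPC, and of knockout HSC regions in its decile 12.8% were absent from knockout HPC. This was the only one of the 132 regions, 0.758%, with that pattern, against 1.83% of all regions. On the other side of the gene a region at 107687762 to 107688787, 37.4 kb beyond the start, was in all lists, with 18.6, 21.6, 16.4, 18.4, 23.5 and 23.8.

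Gfi1b was marked at its start in each list, by a region from 28621596 to 28622982 with fold enrichments of 21.6 and 19.1 in HSC and 26.7 and 25.7 in HPC, each as wild type and knockout, and 15.4 and 17.6 after vehicle and 5-fluorouracil. Its percentiles ran from 76.0 in knockout HSC to 93.8 in wild-type HPC. Downstream, 16.0 kb beyond the start at 28605806 to 28606370, a region had 19.7 in wild-type HPC and 21.1 in knockout HPC, at percentiles 70.2 and 67.2, and 7.9, 4.9 and 5.2 in knockout, vehicle and 5-fluorouracil HSC, at percentiles 11.6, 32.6 and 34.3. Wild-type HSC had none within 7231 bp. Enhancers of Gfi1b downstream of the gene have been described in blood progenitors, and this region was singled out for its place, after its values were seen. At 23.6 kb, from 28597735 to 28599915, a region at percentiles of 92.8 or more was in all lists. At 30.2 kb, from 28591360 to 28591961, a region was in both HPC lists, with 17.3 and 19.6, and in vehicle and 5-fluorouracil HSC, with 8.4 and 7.8. Of knockout HPC regions in its decile of strength 9.14% were absent from knockout HSC.

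Further along, within Ralgds, a Ral guanine nucleotide exchange factor gene, a region 81.8 kb from the Gfi1b start at 28539804 to 28540535 was the strongest by fold enrichment, with 27.1, 30.4, 27.3, 28.2, 25.2 and 26.8. Also within Ralgds, a region at 28545998 to 28546388 was in both HPC lists alone, with 18.6 in wild type at percentile 71.8 and 17.6 in knockout at percentile 60.8. The nearest regions of the HSC lists lay 1176 to 5500 bp away. Of wild-type HPC regions in that decile of strength 17.1% were absent from wild-type HSC. A region 38.7 kb from the start, at 28582469 to 28583470 beside Gtf3c5, was in all lists with 22.2, 23.8, 24.1, 25.7, 21.6 and 22.0. The Gfi1b start and the regions 38.7 and 81.8 kb from it were thus called in stem cells and progenitors alike.

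**Figure D3:**
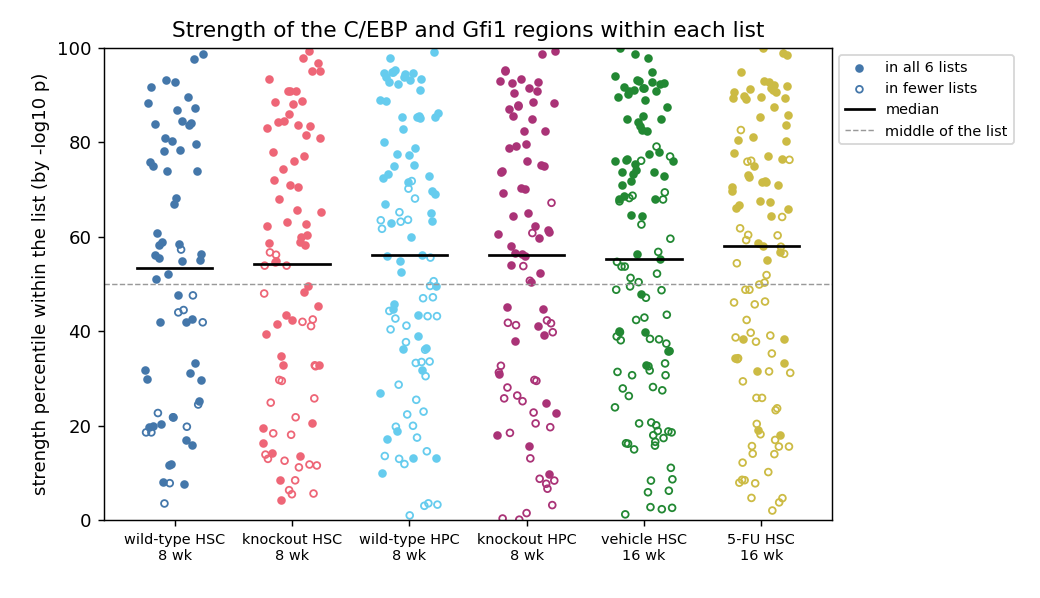
Strength percentile of each member region within its own list by −log10 p (vertical axis), for the 6 peak lists; filled points are regions found in all 6 lists, open points those in fewer, black bars medians and the dashed line the middle of a list. The medians lie between 53.5 and 58.0, and most regions in fewer lists lie below them.

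In strength the member regions sat slightly above the middle of each list, with median percentiles of 53.5 and 54.3 in wild-type and knockout HSC, 56.1 in both HPC lists, and 55.3 and 58.0 after vehicle and 5-fluorouracil. Regions in all 6 lists had median percentiles between 58.2 (wild-type HSC) and 82.3 (vehicle HSC), and those in fewer lists between 22.7 (wild-type HSC) and 36.9 (wild-type HPC). The regions that some lists lacked were thus mostly the weaker ones. By position, 25 of the 132 regions lay within 1 kb of an end of some protein-coding gene, and 14 of these, 56.0% (37.1 to 73.3), were in all lists, against 59.5% of all regions at gene ends. Of the 107 away from gene ends 39, or 36.4% (27.9 to 45.9), were in all lists, against 26.4% of all such regions. Within 10 kb of a member gene 34.5% of 29 regions were in all lists, from 10 to 50 kb 34.7% of 49, and beyond 50 kb 48.1% of 54. Within 50 kb the share was thus 34.6% of 78, nearer to the 32.2% of all regions than the 40.2% of the 132 was.

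**Figure D4:**
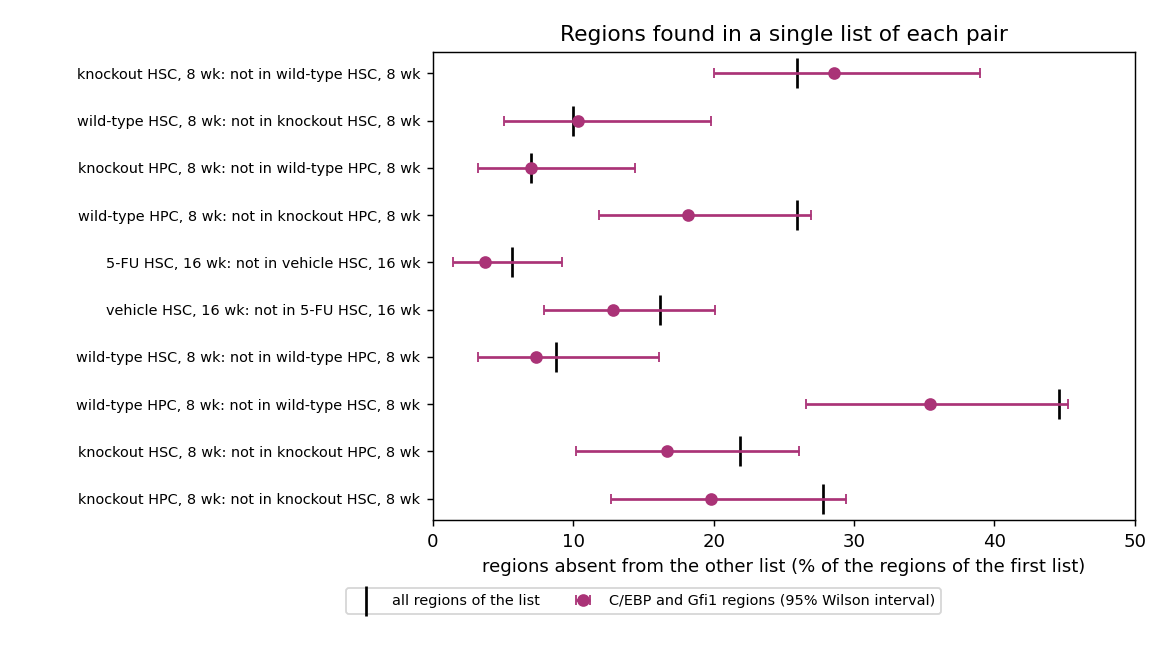
Percent of the regions of the first-named list that overlap no region of the second-named list (horizontal axis), for both directions of 5 comparisons; points are member regions with 95% Wilson intervals and black ticks all regions of the list. Each interval includes the tick of its row.

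The first comparison asked which of these regions were called with and without Kmt2c in HSC. Of 84 knockout HSC member regions 24, or 28.6% (20 to 39.0), had no counterpart in wild-type HSC, beside 25.9% of all knockout HSC regions. In reverse 7 of 68 wild-type member regions, 10.3% (5.08 to 19.8), were absent from knockout HSC, beside 9.99% of all. Both shares are near those of all regions, so they are no result about these genes. Cebpa and Cebpg had 4 regions each in knockout HSC that wild-type HSC lacked and 0 in the reverse direction, 3 of the regions being in both windows, Cebpb 5 and 2, Cebpe 6 and 2, Gfi1b 7 and 2, Gfi1 1 and 1 and Cebpd 0 and 0. The vehicle list, which is of wild-type cells too, held 22 of the 24, or 91.7%, beside 93.3% of all knockout HSC regions absent from wild-type HSC. The strongest of the 24 lay in Pepd near Cebpg, at 34984421 to 34985977, with fold enrichments of 12 in knockout HSC, 8.3 and 9.1 in wild-type and knockout HPC and 10.1 and 7.9 after vehicle and 5-fluorouracil, and 18.8% of knockout HSC regions in its decile of strength were absent from wild-type HSC. The strongest of the 7 lay in Ralgds near Gfi1b, at 28547564 to 28548292, with 15.3 in wild-type HSC, 11.1 and 9.2 in wild-type and knockout HPC and 16.2 and 13.7 in vehicle and 5-fluorouracil HSC. Of wild-type HSC regions in that decile 3.57% were absent from knockout HSC, and of those in the weakest decile 43.5%. The low share goes with the choice of the strongest of the 7. With both lists limited to the same number of strongest regions the knockout share was 15.9%, beside 15.3% of all, and with the weakest 25% of each list removed the wild-type share was 4.0%, beside 5.77%.

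In progenitors the same genotypes were compared. Of 99 wild-type HPC member regions 18, or 18.2% (11.8 to 26.9), were absent from knockout HPC, beside 25.9% of all. Of 86 knockout HPC member regions 6, or 6.98% (3.24 to 14.4), were absent from wild-type HPC, beside 6.96% of all. The interval of each share includes that of all regions. Cebpe had 6 regions in wild-type HPC that knockout HPC lacked and 1 in reverse, Cebpb 4 and 2, Cebpd 3 and 1, Gfi1b 3 and 0, Gfi1 and Cebpa 1 and 1 each, and Cebpg 0 and 1, the last a region in the windows of both Cebpa and Cebpg. Most of these regions were weak, but the 2 strongest in wild type were not. The region in Spidr near Cebpd described above, at percentile 68.1, and a region 44.4 kb above Cebpe within the amino acid transporter gene Slc7a8, at 54756186 to 54756728, with a fold enrichment of 18.3 and percentile 61.7, were both missing from knockout HPC, whose nearest region to the latter was 1091 bp away. Of wild-type HPC regions in that decile of strength 2.14% were absent from knockout HPC. The Slc7a8 region, singled out after its values were seen, had 10.9 and 9.6 after vehicle and 5-fluorouracil and was in neither wild-type nor knockout HSC. In the reverse direction the strongest was the region over the lower end of Cebpd, at percentile 20.5 of knockout HPC. At equal list length the wild-type share was 10.6%, beside 13.5% of all, and without the weakest 25% the knockout share was 2.94%, beside 3.45%.

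Set side by side between the intervals of the lists, the genotype differences in HSC and HPC met at 4 places. A region in Acin1, 50.2 kb below Cebpe at 54660057 to 54660473, was called in knockout HSC and knockout HPC and in none of the wild-type lists, with 11.5 in knockout HSC at percentile 13.0 and 7.2 in knockout HPC at percentile 0.369. This pattern was held by 1 member region, 0.758%, beside 27 consensus regions of the whole series, 0.0287%. A region near Gtf3c5, at 28592711 to 28593133 in the Gfi1b window, was called in each of the 4 wild-type lists and missing from both knockout lists, with 9.7 in wild-type HSC, 6.9 in wild-type HPC, and 7.0 and 5.8 after vehicle and 5-fluorouracil. It was weak in wild-type HSC and HPC, at percentiles 22.7 and 17.5, and near the middle of the vehicle and 5-fluorouracil lists, at 52.2 and 42.4. Its pattern was held by 1 member region, 0.758%, beside 798 consensus regions of the whole series, 0.847%. Above Cebpe an interval at 54713978 to 54715028 in wild-type HSC, with 9.4, was absent from knockout HSC and overlapped one at 54713961 to 54714539 in wild-type HPC, with 7.4, that was absent from knockout HPC. Knockout HPC had another interval there, at 54714616 to 54715058 with 11.9, which overlapped the wild-type HSC one. As a consensus region this place was thus missing from knockout HSC only. Beside the Gfi1b start the direction was opposite, with an interval at 28622383 to 28622819 in knockout HSC, with 7.4 at percentile 14.3, that wild-type HSC lacked, and one at 28622350 to 28622822 in wild-type HPC, with 6.9 at percentile 31.8, that knockout HPC lacked. Both intervals are parts of the consensus region over the Gfi1b start, which was called in all 6 lists. Counted over consensus regions, 0 member regions had opposite directions. Over the whole series 2470 of the 12589 knockout HSC regions absent from wild-type HSC overlapped a wild-type HPC region absent from knockout HPC. Of the same 12589 regions 562 overlapped a knockout HPC region absent from wild-type HPC. Of the 4004 wild-type HSC regions absent from knockout HSC 956 overlapped a wild-type HPC region absent from knockout HPC. These 4 places were named after their values were seen.

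Repeated 5-fluorouracil was compared with vehicle in HSC. The start regions of Cebpa, Cebpb, Cebpg, Gfi1 and Gfi1b and the region over the lower end of Cebpd were called in both lists, while the region at the upper end of Cebpe was called in vehicle and not after 5-fluorouracil. That Cebpe region was weak, with 3.2 at percentile 1.25, and 73.3% of vehicle regions in its decile of strength were absent from 5-fluorouracil. The nearest 5-fluorouracil region lay 594 bp from it. In all, 4 of 107 5-fluorouracil member regions, 3.74% (1.46 to 9.22), were absent from vehicle, beside 5.61% of all, and 15 of 117 vehicle member regions, 12.8% (7.93 to 20.1), were absent from 5-fluorouracil, beside 16.2% of all. Gfi1 had 2 regions in each direction, Gfi1b 1 after 5-fluorouracil against 4 in vehicle, Cebpb 0 against 3, Cebpe 0 against 3, Cebpg 1 against 2, Cebpa 1 against 1 and Cebpd 0 against 1. The strongest found only after 5-fluorouracil lay in Evi5, 56.7 kb before the Gfi1 start at 107782401 to 107782679, with a fold enrichment of 7.7 at percentile 23.7, and was in no other list. Of 5-fluorouracil regions in its decile of strength 4.86% were absent from vehicle. The strongest only in vehicle lay in Ak8, 93.5 kb before the Gfi1b start at 28715179 to 28715784, with 9.1 in vehicle HSC, 16.4 and 13.5 in wild-type and knockout HPC and 10.9 in knockout HSC, and 12% of vehicle regions in its decile were absent from 5-fluorouracil. Of the 15 vehicle regions 5 were also in knockout HSC, 33.3% beside 11.8% of all vehicle regions absent from 5-fluorouracil, and 0 in wild-type HSC, beside 4.63% of all. In wild-type and knockout HPC there was 1 each, 6.67% beside 27.8% and 16.8% of all. Among the 5 are the 4 regions given at the end as held by knockout and vehicle HSC alone. These shares were not tested.

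Stem cells were then compared with progenitors. Of 99 wild-type HPC member regions 35, or 35.4% (26.6 to 45.2), had no counterpart in wild-type HSC, beside 44.6% of all. Conversely, of 68 wild-type HSC member regions 5, or 7.35% (3.18 to 16.1), were absent from wild-type HPC, beside 8.77% of all. In wild type each of the 7 genes had more regions found only in HPC than only in HSC, as had 77.8% of all protein-coding genes, counted over consensus regions. Between the intervals of the lists the counts in HPC and HSC were 9 and 1 for Gfi1b, 7 and 1 for Cebpe, 7 and 0 for Cebpa, 6 and 0 for Cebpg, 5 and 1 for Cebpb, 4 and 1 for Gfi1 and 2 and 1 for Cebpd, with 5 of the HPC regions in the windows of both Cebpa and Cebpg. Of the 35 HPC regions 26, or 74.3%, were in the vehicle HSC list, against 66.5% of all HPC regions absent from wild-type HSC. The strongest of the 35 lay in Ak8, 76.8 kb before the Gfi1b start, with its interval in the consensus region at 28698424 to 28700325, a fold enrichment of 17.4 and percentile 75.1. Wild-type HSC had a separate interval in the same stretch, with 8.7. The strongest of the 5 was the Gfi1 region 42.7 kb before the start. At equal list length both shares were 23.5%, beside 24.3% of all in HPC and 23.7% in HSC.

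In knockout cells the same contrast gave 17 of 86 HPC member regions absent from HSC, 19.8% (12.7 to 29.4), beside 27.8% of all, and 14 of 84 HSC member regions absent from HPC, 16.7% (10.2 to 26.1), beside 21.9% of all. Gfi1 had 5 regions only in knockout HPC and 2 only in knockout HSC, Cebpa and Cebpg 4 and 1 each, which were the same regions, Gfi1b and Cebpb 3 and 3 each, Cebpe 2 and 4 and Cebpd 0 and 1. The strongest in knockout HPC was the Gfi1b region 30.2 kb beyond the start, and the strongest in knockout HSC the Spidr region near Cebpd. The HPC and HSC contrasts in wild type and knockout had no test of their difference.

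Other genes of the same pathway were counted over consensus regions in the same windows, from lists chosen with earlier results of these data known. Of 18 C/EBP target genes of granulocytes and monocytes 17 had more regions only in wild-type HPC than only in wild-type HSC and 0 fewer, of 12 transcription factors that work with these members 12 and 0, of 10 corepressors of Gfi1 and Gfi1b 9 and 0, and of 10 regulators and dimer partners of C/EBP factors 10 and 0, beside 77.8% and 2.44% of all genes. The median net number of HPC regions was 6, 7, 5.5 and 6 in these lists, 5 for the 7 members and 3 for all genes. These net numbers were not scaled to the number of regions in a window. The genes named below had from 24 (Trib1) to 45 (Runx1) regions, beside a median of 15 over all genes. As a share, 35.4% of wild-type HPC member regions were absent from wild-type HSC, beside 44.6% of all. Itgam, an integrin of myeloid cells, had 15 regions only in HPC and 0 only in HSC, and Il6ra, the interleukin-6 receptor, 13 and 2. Runx1, a transcription factor of blood stem cells, had 17 and 0 and Fos, of the AP-1 complex, 15 and 2. Hmg20b and Phf21a, of the Kdm1a complex, had 13 and 2 and 10 and 1, and Trib1, which promotes the breakdown of C/EBP alpha, and the inhibitor gene Id1 had 9 and 0 and 9 and 1.

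Between knockout and wild-type HSC genes with a surplus of regions in the knockout list and in the wild-type list numbered 15 and 0 of 18 target genes, 8 and 2 of 12 transcription factors, 9 and 0 of 10 corepressors and 8 and 0 of 10 regulators, beside 57.9% and 8.99% of all genes and 5 and 0 of the 7 members. Between knockout and wild-type HPC they were 0 and 15, 2 and 9, 0 and 9, and 1 and 7, beside 4.47% and 68.5% of all genes and 2 and 4 of the members. After 5-fluorouracil and in vehicle they were 1 and 10, 2 and 9, 2 and 6, and 2 and 7, beside 9.76% and 58.6% of all genes and 0 and 5 of the members. Between knockout HSC and knockout HPC they were 4 and 11, 2 and 8, 3 and 5, and 0 and 10. Beside these stood 24.6% and 43.8% of all genes and 2 and 4 of the members. In each of these comparisons the direction was that of all genes.

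For each member the genes of most similar pattern were those whose share of regions called in each of the 6 lists differed least, as a mean absolute difference over the lists, among genes with at least 10 regions, which Cebpd itself, with 7, does not reach. They were Cdc25a and Usp5 for Cebpa, at 1.98 percentage points each, Gpr45 and Nol9 for Cebpb at 1.15 and 1.22, Fem1c and Entpd8 for Cebpd at 2.38 and 2.63, and Klhl22 and Scarf2 for Cebpe at 1.14 each. For Cebpg they were Kat7 and Tac4 at 1.35 and 1.39, for Gfi1 Sdcbp and Vapa at 2.18 and 2.29, and for Gfi1b Bysl and H2ac15 at 1.23 and 1.27. The median over all genes compared was between 9.73 points for Gfi1b and 12.2 for Gfi1.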

How the data were processed

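ATAC-seq of 18 samples was analysed from 6 deposited peak lists in narrowPeak form, 1 per group and named by all samples of that group. Per the submitters' processing notes Bowtie2, MACS2 and the build mm10 (GRCm38) were used; no version, pooling step or filter is given in the labels or file headers. The deposited fold enrichment is a ratio of signal over local background, the deposited −log10 p is the peak caller's, and the deposited score was not used. The summit offset, deposited in bp, placed each peak.

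Overlapping rows of a list were merged into regions, and regions overlapping by at least 1 bp across lists into consensus regions. A wide interval of 1 list can join separate intervals of another, and absence was judged between the intervals of each pair of lists, while patterns over the 6 lists and counts per gene of the pathway lists use consensus regions. Coordinates count from 1. Genes came from RefSeq GRCm38.p6, with 21887 protein-coding genes. Python 3.11.15, pandas 2.3.3, numpy 2.4.6 and scipy 1.17.1 were used, and the overlap code was tested on simulated lists. Depth is unknown and there were no replicates, so no p-value was computed. The named regions were those within 1 kb of a gene end, the 3 of highest fold enrichment per member, those in HSC or HPC lists alone and the strongest in a single list of each pair; others are marked as chosen after their values were seen, as was the comparison with regions of the same decile of strength (by percentile in their own list). The members and lists were chosen with earlier results of these data known. The labels name total RNA as the molecule although ATAC-seq reads DNA; this was not resolved. Signal tracks were not used here.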

Additional observations from a re-analysis of the deposited data

Results flagged for a closer look

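An interval beside the Gfi1b start was called in opposite genotypes in stem cells and progenitors. It lies within the consensus region over that start, at 28621596 to 28622982, which all 6 lists held. Counted over consensus regions, 0 member regions had such opposite directions. In HSC it was called in the knockout list, at 28622383 to 28622819 with a fold enrichment of 7.4, and not in wild type. In HPC it was called in wild type, at 28622350 to 28622822 with 6.9, and not in the knockout. The difference was not tested, since each group has a single list. Of regions in the same decile of strength 65.1% of the knockout HSC ones had no counterpart in wild-type HSC, as had 31.7% of the wild-type HPC ones in knockout HPC.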

How the results depend on the processing

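For the shares absent in 10 list directions and the number of regions in all 6 lists, 8 alternatives gave 87 values, of which 78 stayed within the interval of the value as deposited (or within 1.5 times, for the number in all lists). At equal list length the shares absent were 15.9% for knockout HSC against wild-type HSC, beside 15.3% of all regions, and 10.6% for wild-type HPC against knockout HPC, beside 13.5%. They were 23.5% both for wild-type HSC against wild-type HPC and for the reverse, beside 23.7% and 24.3% of all. With the weakest 25% of each list removed they were 4.0% for wild-type HSC against knockout HSC, beside 5.77% of all, and 2.94% for knockout HPC against wild-type HPC, beside 3.45%. With a window of 50 kb knockout HPC against knockout HSC gave 29.4%, beside 27.8% of all regions, where the main value of 19.8% lay below it; the cause was not tested. By construction fewer regions enter with a window of 50 kb, where 27 of 78 regions, 34.6%, were in all lists, and with regions nearest to a member, where 19 of 48, 39.6%, were. Over all regions of the series the share was 32.2%. The member share lay below that of all regions in 7 of 10 directions as deposited, in 6 with a window of 50 kb and in 8 at equal length. No paired analysis was possible because each group has a single pooled list. For the same reason no replicate could be left out. Unknown depth limits each statement on absence.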

Other observations

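Across the 6 lists the patterns next most frequent after presence in all were both 16-week HSC lists alone, with 12 of 132 member regions, 9.09% against 10.8% of all regions, and the vehicle list alone, with 10, 7.58% against 8.74%. Every list but that of wild-type HSC held 10 regions, 7.58% against 5.26% of all, and among these were the Cebpa region 20.7 kb beyond the start and the Gfi1b region 16.0 kb beyond it. Both HPC lists and both 16-week HSC lists, but neither HSC list of 8 weeks, held 5 regions, 3.79% against 4.42% of all. These were the Gfi1 start, a region within Gfi1 at 107717951 to 107718469, the Cebpa region 31.8 kb beyond the start, the Gfi1b region 30.2 kb beyond the start and a region in Slc7a8 near Cebpe at 54728643 to 54729422. The region within Gfi1 had fold enrichments of 12.7 and 12.2 in wild-type and knockout HPC and 5.6 and 7.8 after vehicle and 5-fluorouracil. Knockout and vehicle HSC alone held 4 regions, 3.03% against 0.620% of all, near Cebpe, Cebpb, Gfi1 and Gfi1b, with percentiles in knockout HSC from 5.66 to 32.6. They were already counted above among the vehicle regions absent from 5-fluorouracil. These patterns were picked after their values were seen and were not tested.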
